A study of Mus musculus with 6 samples.

Results

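The antiviral interferon-stimulated genes are 42 genes, chosen by symbol, out of 55487 in the deposited count table, and all 42 were found in it. They were measured by RNA sequencing of lymphocytes taken from the small intestinal epithelial area of C57BL/6J mice and sorted by surface proteins. Every sorted cell was live and positive for CD3ε, which belongs to the T cell receptor complex, and for CD45, the leukocyte phosphatase. Cells without B220 (labelled T cells) gave 3 libraries, and cells with B220 (labelled X cells) gave another 3. B220 is a form of CD45 known from B cells. Both groups are wild type, and no label gives a treatment, an age, a sex or the number of mice behind a library. The p-values therefore measure the spread between libraries, which may be technical in part.

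Interferons are secreted proteins that warn cells of infection. Type I interferons bind the receptor pair IFNAR1 and IFNAR2, whose kinases JAK1 and TYK2 phosphorylate STAT proteins. The factor ISGF3, which contains STAT2 and IRF9, then binds the interferon-stimulated response element in front of its target genes. The targets include sensors of viral nucleic acid, enzymes that degrade or modify RNA, ISG15 and other effectors that block viral replication. Lymphocytes of the gut epithelium lie next to cells exposed to enteric viruses and microbes, and interferons act at this barrier.

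Library totals lay between 11320363 and 39591312 counts, and mitochondrial mRNA took 0.926% to 1.13% of them. The cells carried T cell and intraepithelial genes in both groups: Cd3e stood at 1214 ± 13.7 to 1361 ± 56.4 CPM, from B220− to B220+ cells (CPM, counts scaled to a common library size, mean ± SD, n = 3 libraries each), and Itgae, the αE integrin of these lymphocytes, at 2567 ± 103 to 2633 ± 141 CPM. Of the 9 genes in this identity list, 1 was called lower and 2 higher in B220+ cells by the edgeR test given below. The B cell gene Ms4a1, which encodes CD20, had 2 counts in all B220− libraries and 1 in all B220+ libraries. The 9 B cell markers together summed to 25.8 to 34.4 CPM in the B220− libraries and 31.8 to 35.3 CPM in the B220+ libraries. Of these, 3 were tested, with 1 called lower and 0 higher in B220+ cells.

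Of the antiviral genes, 15 were called lower in B220+ cells, led by Oas2, Oas3 and Mx1, and none was called higher. Of the 42 members, 39 passed the filter on low counts and were tested with edgeR's quasi-likelihood test (adjusted p, Benjamini-Hochberg over all 14722 genes tested, called under 0.05). The 15 lower members were 38.5% of those tested, where 5.56% of all tested genes were lower. By edgeR 0 members were higher, where 5.58% of all tested genes were. With the replicate number as a block, 19 members were lower (8.6% of all genes) and 1, Oasl1, was higher (8.85% of all genes). Without B220+ replicate 2, 9 members were lower, and 545 genes were lower over the whole table. Called in either direction were 11.1% of all tested genes. Each library pools many cells, so fewer cells of one type and less RNA per cell cannot be told apart.

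The median log2 fold change of the 39 tested members was −0.33, against −0.0074 over all genes tested. The fitted change was below 0 for 35 members (89.7%), against 51.5% of all genes. In 24 members (61.5%) every B220+ library lay below every B220− library, against 13.9% of all genes. In 1 member, Oasl1, every B220+ library lay above, against 14.1% of all genes. A called decrease of at least 2-fold was seen in 5 members (12.8%), against 2.32% of all genes, and these were Oas2, Oas3, Mx1, Ifi27l2a and Ifit1bl1. A further 2, Ifit1 and Isg15, fell between 1.5-fold and 2-fold. The other 8 called members fell by less than 1.5-fold. The 24 uncalled members had log2 fold changes between −1.09 and 0.79, and 21 of them differed by less than 1.5-fold in either direction.

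**Figure D1:**
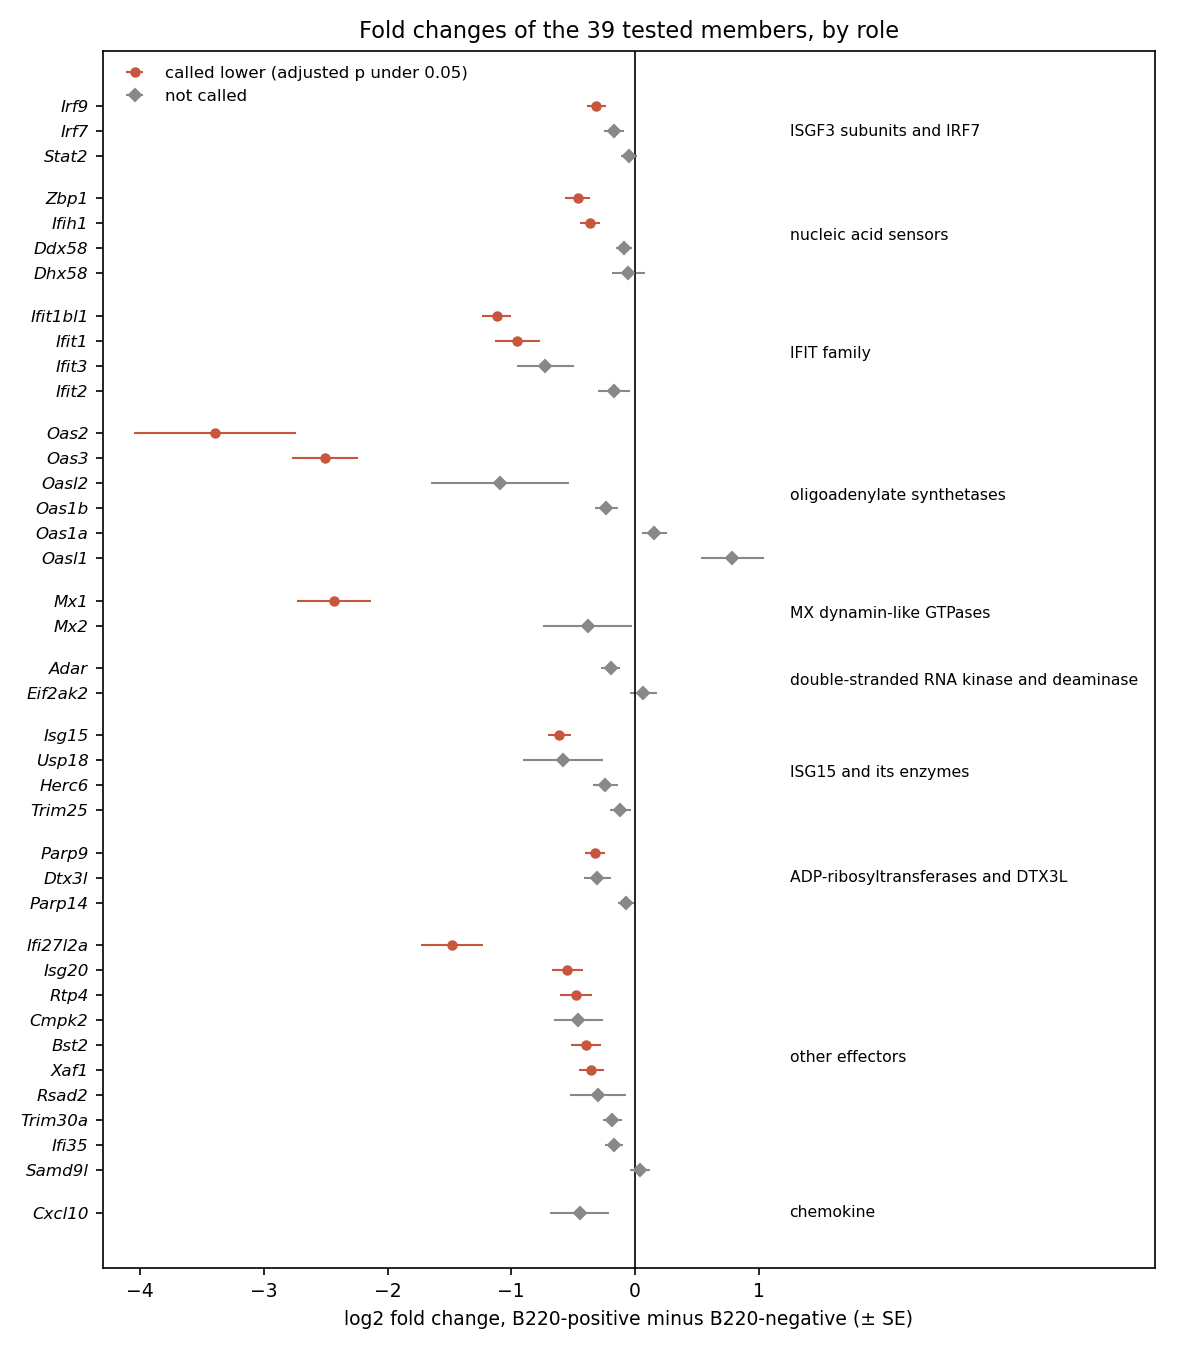
Fitted log2 fold changes (B220+ minus B220−, points, with standard errors as bars) of the 39 tested members, grouped by role; red circles are called lower and grey diamonds are not called. The 3 points below −2 are Oas2, Oas3 and Mx1, while Oas1a, Oasl1, Eif2ak2 and Samd9l lie above 0 without being called.

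The bases just before the start sites were searched for the response element that ISGF3 binds. They are given for the 4 members with the largest called decrease among those with a RefSeq promoter window. Oas1a, an uncalled relative of Oas3, is shown too. Each run holds 150 bases that end at the base before the RefSeq start (GRCm38.p6, the mm10 assembly), 5′ to 3′ on the gene's strand. Capitals mark matches to the response element, searched as GAAA, then NN, then GAAA on either strand. A match on the other strand therefore reads TTTC, then NN, then TTTC. Overlapping matches were all marked.
Oas3: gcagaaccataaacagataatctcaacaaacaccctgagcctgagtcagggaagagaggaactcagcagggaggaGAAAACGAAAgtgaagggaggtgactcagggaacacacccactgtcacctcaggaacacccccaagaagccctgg
Ifit1bl1: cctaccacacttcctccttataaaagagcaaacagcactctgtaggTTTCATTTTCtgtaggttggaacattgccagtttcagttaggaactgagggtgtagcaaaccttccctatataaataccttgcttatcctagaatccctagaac
Ifit1: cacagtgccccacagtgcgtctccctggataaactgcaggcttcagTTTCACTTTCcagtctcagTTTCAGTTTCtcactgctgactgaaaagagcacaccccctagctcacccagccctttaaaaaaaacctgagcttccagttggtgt
Isg15: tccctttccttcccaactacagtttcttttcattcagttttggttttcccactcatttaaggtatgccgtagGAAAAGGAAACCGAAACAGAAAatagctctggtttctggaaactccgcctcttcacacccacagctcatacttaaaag
Oas1a: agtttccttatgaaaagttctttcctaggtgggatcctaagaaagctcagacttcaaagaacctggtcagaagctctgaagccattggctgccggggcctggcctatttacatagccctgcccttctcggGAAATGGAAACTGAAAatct

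In the order printed, the runs are chr5:120777660-120777809 on the minus strand, chr19:34601969-34602118 on the minus strand (before 1 of the gene's 2 starts), chr19:34640739-34640888 on the plus strand, chr4:156200819-156200968 on the minus strand and chr5:120907526-120907675 on the minus strand. Isg15 had 3 overlapping matches, Ifit1 had 2 separate ones, Oas1a had 2 that overlap, and Oas3 and Ifit1bl1 had 1 each. The table held a window, from 250 bases before the start to 50 after it, for 31 of the 42 members, and had none for Dhx58, Zbp1, Oas1b, Oas2, Mx1, Mx2, Usp18, Parp9, Parp14, Rtp4 and Ifi27l2a. A match lay in the windows of 16 of them (51.6%), against 1079 of 27025 genes (3.99%). It was found in 6 of the 9 called members with a window and in 8 of the 19 uncalled ones. The gamma-activated site, which STAT dimers bind and which was searched as TTCNNNGAA, had a match in 7 of the 31 members (22.6%) and in 9.55% of all genes. A match is a run of letters and not a measured binding site.

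Of the 3 transcription factors in the list, Irf9 fell, and Stat2 and Irf7 were not called. Irf9, the DNA-binding subunit of ISGF3 (ENSMUSG00000002325, mm10 chromosome 14, 55603571 to 55610030), stood at 89.4, 78.2 and 84.9 CPM in the B220− libraries and 64.0, 69.7 and 69.3 CPM in the B220+ libraries. All B220+ values lay below all B220− values, and Irf9 fell 1.24-fold (log2 fold change −0.31, SE 0.076, adjusted p = 0.0178). Its adjusted p was 0.0582 without B220− replicate 1, 0.0707 without B220− replicate 3 and 0.0811 without B220+ replicate 1. Stat2, the ISGF3 subunit that activates transcription, stood at 115, 119.8 and 128 CPM in the B220− libraries and 116, 118 and 117 CPM in the B220+ libraries. The groups overlapped, and Stat2 was not called (log2 fold change −0.048, SE 0.067, adjusted p = 0.756). Irf7, which amplifies interferon production, stood at 91.7, 98.0 and 86.5 CPM in the B220− libraries and 74.9, 89.8 and 80.5 CPM in the B220+ libraries. These ranges overlapped too, with no call (log2 fold change −0.17, SE 0.083, adjusted p = 0.254). Reads of Irf9 and the same-strand gene Rnf31, and of Irf7 and the opposite-strand gene Phrf1, can fall in shared sequence, so both values carry that uncertainty.

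Among the 4 sensors of viral nucleic acid, Ifih1 and Zbp1 fell and Ddx58 and Dhx58 were not called. Ifih1 encodes MDA5, which detects long double-stranded RNA, and stood at 41.1, 40.2 and 37.8 CPM in the B220− libraries and 29.5, 32.4 and 30.7 CPM in the B220+ libraries. It was lower in every B220+ library (log2 fold change −0.36, SE 0.082, adjusted p = 0.0118) and passed under every alternative run, with adjusted p up to 0.0487. Zbp1, a sensor of left-handed nucleic acid that can trigger cell death, stood at 119.8, 92.5 and 91.2 CPM in the B220− libraries and 72.0, 72.4 and 76.0 CPM in the B220+ libraries. Every B220+ value was lower, a 1.38-fold decrease (log2 fold change −0.46, SE 0.10, adjusted p = 0.0102) whose adjusted p was 0.0509 without B220+ replicate 1 and 0.0609 without B220+ replicate 2. Ddx58 encodes RIG-I, which detects the ends of viral RNA, and stood at 173, 174 and 164 CPM in the B220− libraries and 161, 162 and 157 CPM in the B220+ libraries. The groups did not overlap, yet the gap was small and not called (log2 fold change −0.089, SE 0.063, adjusted p = 0.469). Dhx58, a regulator of the other RNA sensors, stood at 23.3, 20.6 and 16.3 CPM in the B220− libraries and 20.0, 21.1 and 17.0 CPM in the B220+ libraries, overlapping and not called (log2 fold change −0.053, SE 0.14, adjusted p = 0.877).

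The IFIT proteins bind foreign RNA and block its translation, and their genes lie side by side on chromosome 19. Ifit1bl1 (ENSMUSG00000079339, mm10 chromosome 19, 34592891 to 34601956) stood at 31.0, 27.9 and 27.3 CPM in the B220− libraries and 12.7, 14.9 and 11.7 CPM in the B220+ libraries. The 3 B220− libraries were close together, every B220+ library was below them, and the decrease was 2.17-fold (log2 fold change −1.12, SE 0.12, adjusted p = 5.58e-05). Ifit1 (ENSMUSG00000034459, mm10 chromosome 19, 34640871 to 34650009), which binds RNA caps without methylation, stood at 10.6, 10.3 and 7.87 CPM in the B220− libraries and 4.16, 5.16 and 5.52 CPM in the B220+ libraries. Again no B220+ library reached a B220− one (log2 fold change −0.95, SE 0.18, adjusted p = 0.00405). Both genes were called under every alternative. Ifit3, a partner of IFIT1, stood at 3.61, 3.74 and 4.37 CPM in the B220− libraries and 2.12, 2.37 and 2.55 CPM in the B220+ libraries and was apart between the groups, and the replicate block turned its adjusted p of 0.0660 into 0.0368. Its near-identical neighbour Ifit3b had 36 B220− and 20 B220+ counts and was not tested, and the pair can share reads. Ifit2, which promotes apoptosis and lies in the same cluster, stood at 21.7, 20.97 and 15.6 CPM in the B220− libraries and 17.4, 16.5 and 18.2 CPM in the B220+ libraries and was not called (log2 fold change −0.17, SE 0.13, adjusted p = 0.506). The log2 ratio of Ifit1bl1 to Ifit2 was 0.52, 0.41 and 0.81 in the B220− libraries and −0.45, −0.14 and −0.64 in the B220+ libraries, apart between the groups, and was not tested. This pair sets a called gene against an uncalled gene, so the gap follows in part from the calls.

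The oligoadenylate synthetases make a second messenger that activates the nuclease RNase L, and their genes held the 2 largest fitted decreases of the list. Oas3 (ENSMUSG00000032661, mm10 chromosome 5, 120753098 to 120777661), the form with the highest affinity for long double-stranded RNA, stood at 51.1, 26.7 and 30.9 CPM in the B220− libraries and 6.70, 6.30 and 6.30 CPM in the B220+ libraries. The 3 B220+ libraries were nearly equal, while B220− replicate 1 stood well above the other two B220− libraries. Oas3 fell 5.67-fold (log2 fold change −2.50, SE 0.27, adjusted p = 0.00167), with log2 fold changes of −2.69 to −2.16 over the 10 alternatives, each with a call. Oas2 (ENSMUSG00000032690, mm10 chromosome 5, 120730333 to 120749853), its neighbour, was scarce, with 70 B220− and 9 B220+ counts. It stood at 2.21, 1.13 and 0.787 CPM in the B220− libraries and 0.0848, 0.201 and 0 CPM in the B220+ libraries (log2 fold change −3.40, SE 0.66, adjusted p = 0.00454). The 0 in B220+ replicate 3 allows up to 0.212 CPM (3 counts, counting error only), and Oas2 was called under every alternative. Its log2 fold change rests on few counts and was −4.90 without B220+ replicate 2.

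Oas1a, which encodes the best-studied mouse synthetase and lies in the same chromosome 5 cluster as Oas2 and Oas3, was not called. It stood at 26.6, 27.5 and 29.0 CPM in the B220− libraries and 26.6, 31.4 and 34.2 CPM in the B220+ libraries, with the groups overlapping (log2 fold change 0.16, SE 0.10, adjusted p = 0.427). The log2 ratio of Oas3 to Oas1a was 0.94, −0.039 and 0.088 in the B220− libraries and −1.99, −2.32 and −2.44 in the B220+ libraries. Each B220+ library lay below each B220− library in this ratio. The ratio sets a called gene against an uncalled gene, so this gap follows in part from the calls. The difference between the 2 genes was not tested. Oas1b, whose product is truncated in this mouse strain, was apart but not called (24.9 ± 0.911 to 21.2 ± 0.527 CPM, log2 fold change −0.23, SE 0.092, adjusted p = 0.146). Oas1g had 2 B220− and 10 B220+ counts and was not tested. Oasl1, a regulator of Irf7 translation, stood at 2.32, 3.97 and 4.72 CPM in the B220− libraries and 5.01, 6.40 and 7.22 CPM in the B220+ libraries. It was the one tested member above in every B220+ library (log2 fold change 0.79, SE 0.26, adjusted p = 0.0717), and its adjusted p was 0.00940 with no filter on low counts and 0.00799 with the block. Oasl2, another OAS-like gene, had 56 B220− and 37 B220+ counts and was not called (adjusted p = 0.281).

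The MX genes encode GTPases that assemble on viral nucleocapsids, and in this inbred strain Mx1 carries a deletion that removes part of the protein. The Mx1 transcript (ENSMUSG00000000386, mm10 chromosome 16, 97447035 to 97462907) stood at 9.91, 6.40 and 6.82 CPM in the B220− libraries and 1.02, 1.99 and 0.920 CPM in the B220+ libraries. No B220+ library came near a B220− one, and Mx1 fell 5.40-fold (log2 fold change −2.43, SE 0.30, adjusted p = 2.51e-04), called under every alternative. Mx2 lies beside it on chromosome 16 and was scarce, at 1.56, 1.30 and 1.92 CPM in the B220− libraries and 0.764, 1.26 and 1.56 CPM in the B220+ libraries. Its groups overlapped and it was not called (log2 fold change −0.38, SE 0.36, adjusted p = 0.610). The log2 ratio of Mx1 to Mx2 was 2.67, 2.30 and 1.83 in the B220− libraries and 0.41, 0.66 and −0.76 in the B220+ libraries, with no overlap between the groups and no test. Mx1 was called and Mx2 was not, so this gap too follows in part from the calls. The Mx2 values rest on 9, 50 and 22 counts in the B220+ libraries.

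**Figure D2:**
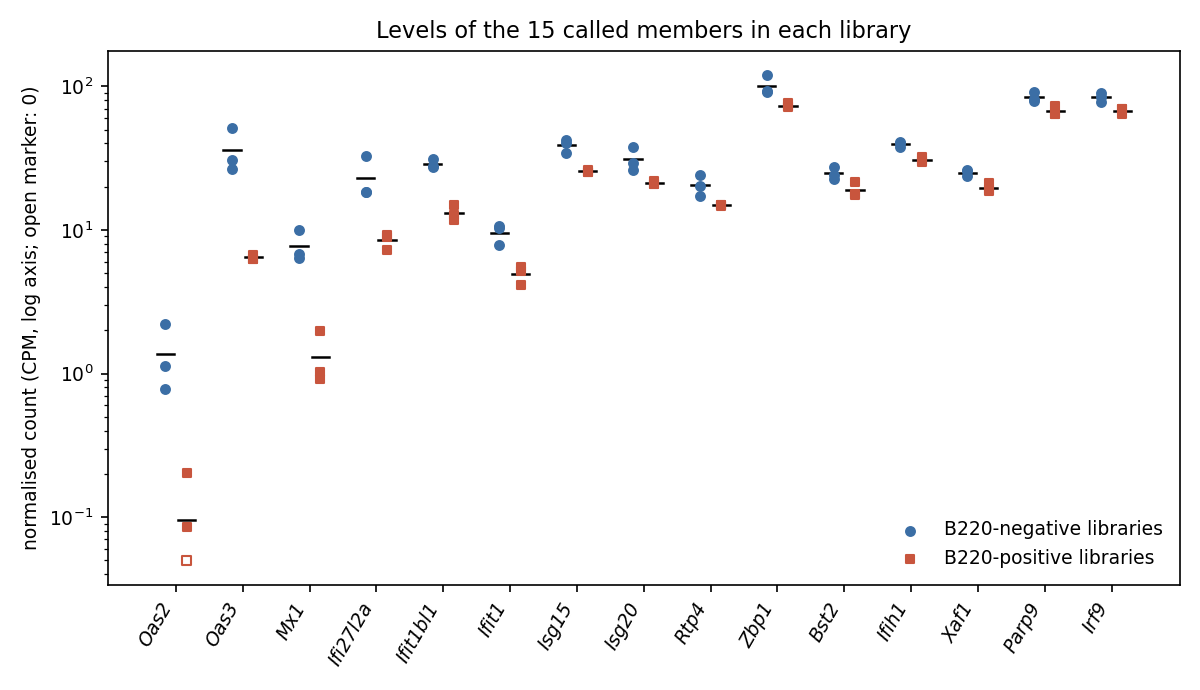
Normalised counts (CPM, log axis) of the 15 called members in each library, ordered by fold change; circles are B220− and squares B220+ libraries, bars are group means, and the open square stands for a count of 0. No group overlaps for any of the 15, and the gap is widest for Oas2, Oas3 and Mx1.

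PKR and ADAR, enzymes that act on double-stranded RNA, were not called. Eif2ak2 encodes PKR, a kinase that stops translation, and stood at 35.8 ± 4.25 to 37.5 ± 4.70 CPM from B220− to B220+ cells (log2 fold change 0.067, SE 0.11, adjusted p = 0.803). Adar, the RNA deaminase that marks the cell's own RNA, stood at 141, 140.2 and 131 CPM in the B220− libraries and 121, 129.7 and 109 CPM in the B220+ libraries. Its groups were apart, and its adjusted p of 0.137 became 0.0230 with the replicate block. The opposite-strand gene Chrnb2 overlaps Adar, so the value is uncertain to that extent.

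Isg15 (ENSMUSG00000035692, mm10 chromosome 4, 156199455 to 156200796) encodes a ubiquitin-like protein that is joined to viral and cellular proteins, and it was the most abundant member per exon length in B220− cells. It stood at 42.3, 40.4 and 34.3 CPM in the B220− libraries and 26.0, 25.4 and 25.5 CPM in the B220+ libraries. The B220+ values were tightly grouped below every B220− value, and Isg15 fell 1.53-fold (log2 fold change −0.61, SE 0.094, adjusted p = 0.00101), called under every alternative. The genes that act with it were not called. Usp18, which removes ISG15 and damps receptor signalling, stood at 3.16 ± 1.27 to 2.09 ± 0.505 CPM (log2 fold change −0.58, SE 0.32, adjusted p = 0.330). Herc6, the mouse ligase for ISG15, stood at 27.4 ± 2.52 to 23.2 ± 0.883 CPM and did not overlap (log2 fold change −0.24, SE 0.099, adjusted p = 0.164). Trim25, a ubiquitin ligase that assists RIG-I, stood at 57.9 ± 6.42 to 53.6 ± 2.49 CPM (log2 fold change −0.12, SE 0.087, adjusted p = 0.486). Of the enzymes outside the list that activate and conjugate ISG15, Uba7 (adjusted p = 0.270) and Ube2l6 (adjusted p = 0.124) were not called either. Their log2 fold changes were −0.14 and 0.34, and every B220+ value of Ube2l6 lay above every B220− value.

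PARP9 and DTX3L work as a pair that modifies histones and viral proteins, and their genes lie head to head with overlapping ends. Parp9 (ENSMUSG00000022906, mm10 chromosome 16, 35938470 to 35972605) stood at 91.3, 81.7 and 79.1 CPM in the B220− libraries and 72.6, 64.6 and 64.3 CPM in the B220+ libraries, with no overlap (log2 fold change −0.33, SE 0.081, adjusted p = 0.0200). Its adjusted p was 0.0674 without B220− replicate 1, 0.0934 without B220+ replicate 2 and 0.0907 without B220+ replicate 3. Dtx3l stood at 154, 121 and 113 CPM in the B220− libraries and 112, 103 and 101 CPM in the B220+ libraries. It was also lower in every B220+ library, and its adjusted p was 0.107, against 0.00315 with all genes kept, 0.0493 with DESeq2 and 0.00311 with the block. Reads from the shared ends cannot be assigned to either gene if strand was not used. Parp14, an ADP-ribosyltransferase next to them, stood at 171 ± 8.06 to 162 ± 4.57 CPM and was not called (log2 fold change −0.074, SE 0.066, adjusted p = 0.585).

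Of 11 further effectors, 10 were tested and 5 fell. Ifi27l2a (ENSMUSG00000079017, mm10 chromosome 12, 103442167 to 103443680), a small protein of mitochondria and other membranes, stood at 32.7, 18.5 and 18.3 CPM in the B220− libraries and 9.25, 7.23 and 8.98 CPM in the B220+ libraries. B220− replicate 1 was the highest and every B220+ library was below the others (2.79-fold, log2 fold change −1.48, SE 0.25, adjusted p = 0.00813), and without B220+ replicate 2 the adjusted p was 0.0513. Isg20, an exonuclease for single-stranded RNA, stood at 37.6, 29.5 and 26.1 CPM in the B220− libraries and 20.95, 22.01 and 20.9 CPM in the B220+ libraries. The B220+ libraries were nearly equal and lower (log2 fold change −0.55, SE 0.12, adjusted p = 0.0119), with an adjusted p of 0.0550 without B220+ replicate 3.

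The other 3 calls among the effectors were of Rtp4, Bst2 and Xaf1, and each was lost in 4 or more of the alternatives. Rtp4, a chaperone for G-protein-coupled receptors, stood at 24.0, 20.2 and 17.2 CPM in the B220− libraries and 14.9, 14.6 and 14.9 CPM in the B220+ libraries. It was lower in every B220+ library (log2 fold change −0.48, SE 0.13, adjusted p = 0.0298), but adjusted p was 0.132 without B220− replicate 1 and 0.0747, 0.118 and 0.0837 without B220+ replicates 1, 2 and 3. Bst2, or tetherin, which holds budding virus at the cell surface, stood at 27.5, 22.6 and 24.3 CPM in the B220− libraries and 17.5, 17.7 and 21.6 CPM in the B220+ libraries. The nearest B220+ and B220− libraries nearly touched (log2 fold change −0.40, SE 0.12, adjusted p = 0.0483), and adjusted p was 0.167 and 0.117 without B220− replicates 1 and 3, 0.150 and 0.205 without B220+ replicates 1 and 2, and 0.0521 with DESeq2. Xaf1, which promotes apoptosis, stood at 26.2, 23.6 and 25.5 CPM in the B220− libraries and 19.2, 18.5 and 21.4 CPM in the B220+ libraries. Its groups were apart (log2 fold change −0.35, SE 0.10, adjusted p = 0.0406), with adjusted p of 0.116 and 0.122 without B220− replicates 1 and 3, 0.109 and 0.182 without B220+ replicates 1 and 2, and 0.0624 with DESeq2.

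Among the uncalled effectors was Samd9l, the member with the most reads per exon length in B220+ cells. Samd9l, which restricts poxviruses, stood at 202, 192 and 174 CPM in the B220− libraries and 194, 209 and 179 CPM in the B220+ libraries, overlapping, with a log2 fold change of 0.040 (SE 0.079, adjusted p = 0.840). Per kilobase of exon it was the third most abundant member in B220− cells (34.8 CPM per kb, after Isg15 at 51.6 and Ifi27l2a). In B220+ cells it came first (35.8 CPM per kb), followed by Isg15 (33.9) and Ifi35 (26.8). Ifi27l2a stood at 18.3 CPM per kb there. Rsad2, or viperin, and its neighbour Cmpk2, which together make a chain-terminating nucleotide, were not called (adjusted p = 0.499 and 0.186). Ifi35, a partner of NMI, stood at 51.7, 50.2 and 54.5 CPM in the B220− libraries and 46.8, 44.1 and 47.9 CPM in the B220+ libraries and was not called either (adjusted p = 0.168). The gene Gm11626 overlaps it and can share its reads. Trim30a, a ubiquitin ligase that restrains inflammatory signalling, was not called (adjusted p = 0.158). Ifi44 had 7 B220− and 4 B220+ counts and was not tested. Cxcl10, the chemokine that draws CXCR3-bearing T cells, stood at 20.6, 24.8 and 18.4 CPM in the B220− libraries and 9.84, 19.5 and 16.5 CPM in the B220+ libraries. Its groups overlapped (log2 fold change −0.45, SE 0.24, adjusted p = 0.338), and its adjusted p was 0.00839 with no filter on low counts and 0.0386 with the block.

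**Figure D3:**
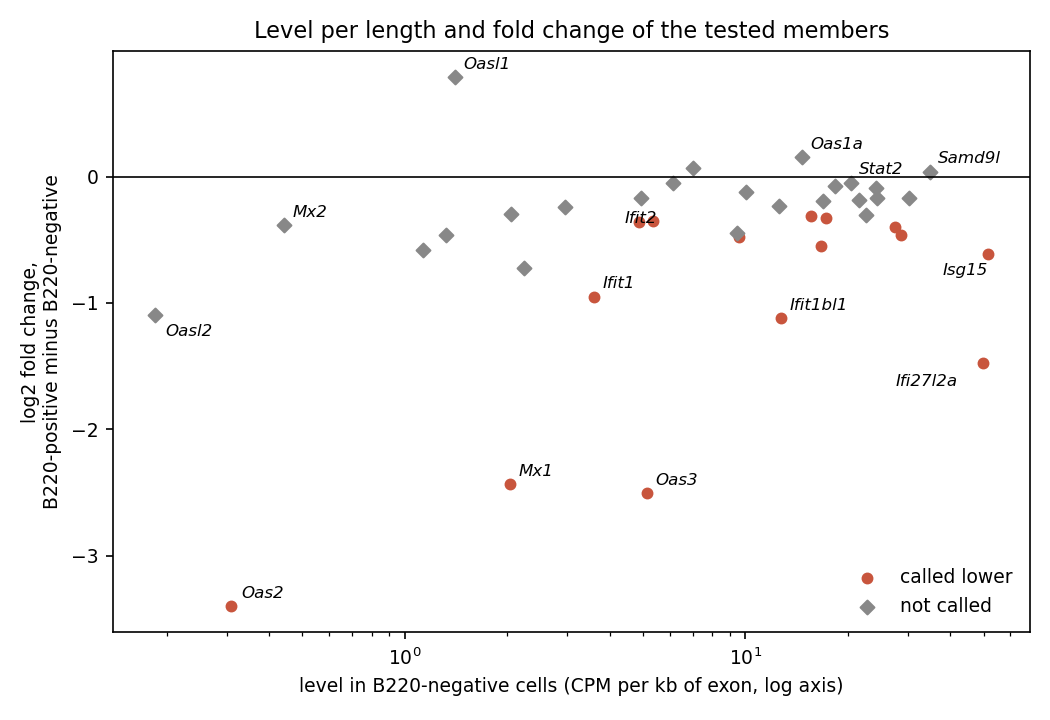
Each tested member's level in B220− cells (CPM per kb of exon, log axis) against its log2 fold change (B220+ minus B220−); red circles are called lower and grey diamonds are not called. Large decreases are seen at low levels (Oas2, Mx1) and at high ones (Ifi27l2a), and members at similar levels, such as Oas3 and Ifit2, differ in their change.

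The genes upstream of the list were examined next, from lists of the pathway. Of 21 interferon genes, 18 had no count in any library, among them Ifnb1 and all the listed Ifna genes, and Ifnk and Ifnz had at most 10 counts per group. Ifng, the type II interferon of T cells, was the one tested and fell 2.50-fold, with 98.3, 86.9 and 85.4 CPM in the B220− libraries and 31.5, 38.6 and 37.9 CPM in the B220+ libraries (log2 fold change −1.32, SE 0.092, adjusted p = 3.21e-06). It was lower in every B220+ library.

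Among the tested genes for interferon receptors and JAK-STAT signalling, the receptor genes Ifnar2 and Ifngr2 were called lower, and 3 genes were called higher. Ifnar2, a chain of the type I receptor, stood at 45.3, 40.6 and 38.1 CPM in the B220− libraries and 29.1, 33.0 and 28.5 CPM in the B220+ libraries, without overlap (log2 fold change −0.45, SE 0.094, adjusted p = 0.00748). Its partner Ifnar1 was not called (96.5 ± 3.46 to 90.4 ± 4.21 CPM, log2 fold change −0.091, SE 0.069, adjusted p = 0.504). Ifngr2, the signalling chain of the interferon-γ receptor, stood at 6.84, 7.03 and 7.96 CPM in the B220− libraries and 1.36, 1.99 and 1.91 CPM in the B220+ libraries, a 4.03-fold decrease (log2 fold change −2.01, SE 0.22, adjusted p = 7.71e-05). Ifngr1, the ligand-binding chain, was far more abundant and not called (484 ± 37.6 to 457 ± 56.2 CPM, adjusted p = 0.686).

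The genes that rose in this list were Stat3, which carries signals of other cytokines (1.24-fold, adjusted p = 0.0103), and the phosphatases Ptpn11 (SHP-2, 1.52-fold, adjusted p = 0.00153) and Ptpn6 (SHP-1, 1.39-fold, adjusted p = 0.0301). For Ptpn6 the adjusted p, by the library left out, was 0.124 (B220− replicate 3), 0.0747 (B220+ replicate 1), 0.122 (B220+ replicate 2) and 0.0663 (B220+ replicate 3). The kinases Jak1, Jak2 and Tyk2 were not called (adjusted p = 0.803, 0.857 and 0.336), nor were Il10rb and the feedback genes Socs1 and Socs3. Irf1 became lower with the replicate block (adjusted p = 0.0366, against 0.170). Of 15 tested genes that switch on interferon transcription, such as Mavs, Sting1, Cgas and Tbk1, 0 were called by edgeR. With the replicate block Irf3 and Ikbke were lower (adjusted p = 0.0426 and 0.0314) and Unc93b1 was higher (0.0346).

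**Figure D4:**
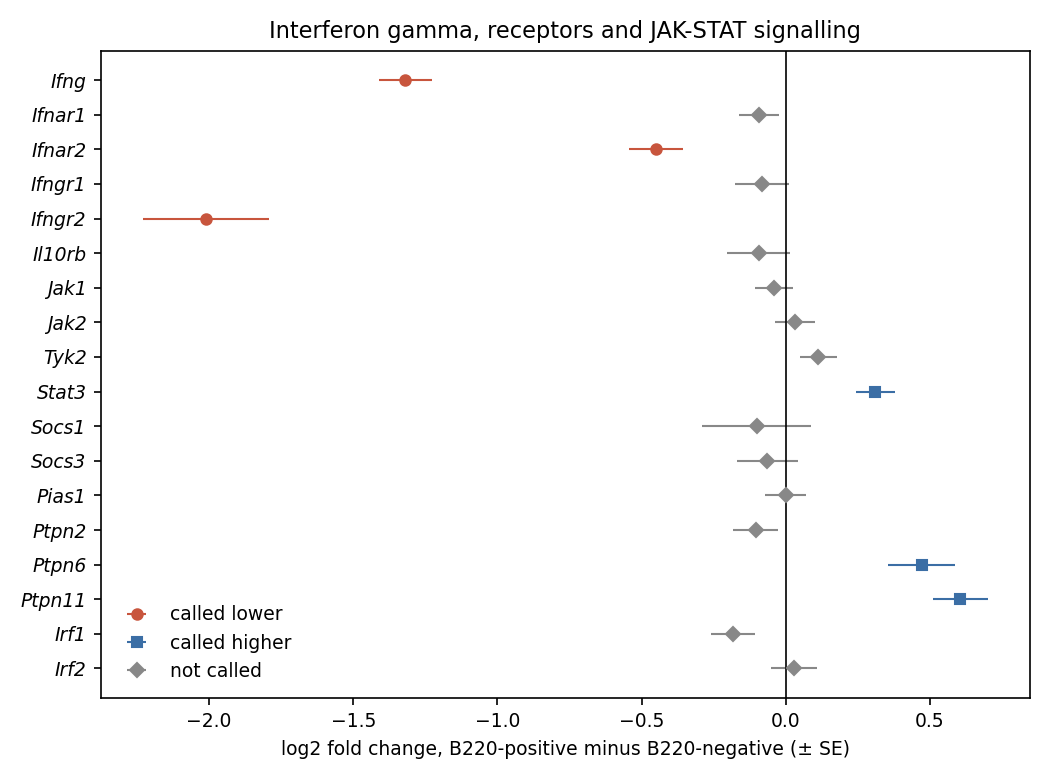
Fitted log2 fold changes (B220+ minus B220−, points, with standard errors as bars) of Ifng and of tested receptor and JAK-STAT genes; red circles are called lower, blue squares higher and grey diamonds not called. Among the called genes, Ifng, Ifnar2 and Ifngr2 lie below 0, and Stat3, Ptpn6 and Ptpn11 above it.

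Of 49 tested type I interferon targets outside the 42 members, 12 fell and 1 rose, with a median log2 fold change of −0.14. Over all tested genes, 5.56% fell and 5.58% rose. The Schlafen genes, which control T cell quiescence and restrict viruses, included Slfn5 (log2 fold change −2.40), Slfn1 (−1.58) and Slfn2 (−0.67), all lower, while Slfn8 and Slfn9 were not called. Phf11b (−1.64), Epsti1 (−0.68), Ddx60, a helicase that assists RIG-I (−0.55), Sp100 (−0.46) and Samhd1, which depletes nucleotides (−0.40), fell too. The other 4 were Parp10, Parp12, Lgals9 and Sp110. These 4 lost the call without 1 library. By the library left out, the adjusted p of Parp10 was 0.0556 (B220+ replicate 1) and 0.0598 (B220+ replicate 3). For Parp12 it was 0.0524 (B220− replicate 1), 0.0509 (B220+ replicate 1) and 0.0645 (B220+ replicate 2). Lgals9, a galectin, had 0.0923 (B220− replicate 1), 0.111 (B220+ replicate 1) and 0.102 (B220+ replicate 2). Sp110, a nuclear body protein, had 0.0769 (B220− replicate 1), 0.0806 (B220− replicate 3), 0.103 (B220+ replicate 1) and 0.117 (B220+ replicate 2). Tdrd7, which inhibits viral use of autophagy, rose 2.37-fold (adjusted p = 0.00844, but 0.0627 without B220− replicate 3). The antiviral membrane genes Ifitm1, Ifitm2 and Ifitm3 were too scarce to test.

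Of 27 tested genes responsive to interferon-γ, 13 fell and 0 rose, with a median log2 fold change of −0.25. Of all tested genes, 5.56% fell and 5.58% rose. Without B220+ replicate 2, 8 of the interferon-γ genes fell, and 545 genes fell over the whole table. Nlrc5, which drives MHC class I transcription, stood at 459, 435 and 492 CPM in the B220− libraries and 316, 344 and 325 CPM in the B220+ libraries and fell 1.41-fold without overlap (adjusted p = 6.31e-04). The immunoproteasome genes Psmb8 and Psmb9 fell 1.26-fold and 1.29-fold, and the peptide transporter gene Tap1 1.27-fold. The GTPases Tgtp1, Tgtp2, Igtp and Gbp6 fell 1.74-fold, 1.42-fold, 1.42-fold and 1.64-fold. Iigp1, another GTPase of this family, fell 7.65-fold. Tgtp1 and Tgtp2 are near-identical and may share reads. The other 4 were Psme2, Gbp2, Gbp3 and Irgm1, which with Psmb8 lost the call without 1 library. By the library left out, the adjusted p of Psmb8 was 0.0517 (B220+ replicate 2). That of Psme2, a proteasome activator, was 0.148 (B220− replicate 1), 0.0576 (B220− replicate 2), 0.101 (B220+ replicate 1), 0.0947 (B220+ replicate 2) and 0.138 (B220+ replicate 3). Gbp2 had 0.0775 (B220+ replicate 1) and 0.0957 (B220+ replicate 2), and Irgm1 had 0.0748 (B220+ replicate 1), 0.0540 (B220+ replicate 2) and 0.0733 (B220+ replicate 3). Gbp3 had 0.118 (B220− replicate 1), 0.0737 (B220− replicate 3), 0.0844 (B220+ replicate 1) and 0.146 (B220+ replicate 2). Irf8, an interferon-γ target that is also a lineage factor, stood at 34.6, 74.3 and 46.2 CPM in the B220− libraries and 133, 138 and 128 CPM in the B220+ libraries. Every B220+ value was above every B220− value, but it was not called (adjusted p = 0.0628). It was called with DESeq2 (adjusted p = 5.52e-04) and without B220− replicate 1 or 2 (0.0425 and 8.82e-07).

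The B220− libraries differed among themselves in these genes. Replicate 1 held the highest of the 3 values in all 15 called members, and in 462 of the 818 genes called lower over the whole table (56.5%). Over the 39 tested members it was highest in 23, against 34.6% of all tested genes. Replicate 3 was lowest in 10 of the 15, and in 23.7% of all genes called lower. Replicate 2 was lowest in the other 5, and in 60.3% of all genes called lower. Markers of conventional T cells, which the B220− sort can hold, moved with the same groups: 11 of 12 were called lower in B220+ cells, against 5.56% of all tested genes, and none was at 0 in either group. The median log2 fold change of the 12 markers was −3.67, against −0.33 for the 39 tested members. The 12 markers summed to 1629.6 to 2513 CPM in the B220− libraries and 417 to 500.3 CPM in the B220+ libraries. Within B220− cells they were highest in replicate 1 for 9 of the 12 genes, and lowest in replicate 2 for all 12. The part of these cells in the antiviral decrease was not tested.

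**Figure D5:**
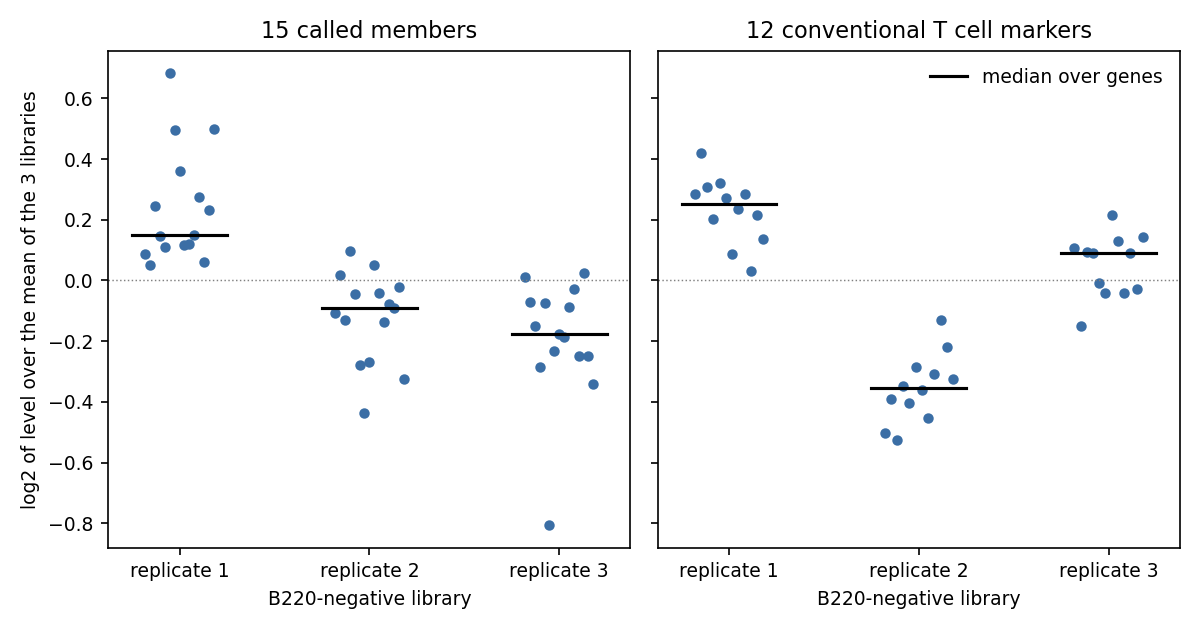
Level of each gene in a B220− library over its mean in the 3 B220− libraries (log2), for the 15 called members (left) and the 12 conventional T cell markers (right); points are genes and bars are medians over genes. Replicate 1 is highest in both panels (medians 0.15 and 0.25), while the lowest median is that of replicate 3 on the left (−0.18) and of replicate 2 on the right (−0.35).

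Without B220− replicate 1, 10 members were called lower, and 691 genes were called lower over the whole table. Irf9, Parp9, Bst2, Xaf1 and Rtp4 lost the call in that fit. Oas3, Mx1 and Ifi27l2a had log2 fold changes of −2.16, −2.21 and −1.13 there. Plasma cell markers summed to 14.1 to 105 CPM in the B220− and 7.80 to 26.7 CPM in the B220+ libraries, which overlapped, with 1 of 3 tested markers, Sdc1, called lower and Mzb1 at 0 in every library. Their part in the antiviral decrease was not tested. The 7 markers of plasmacytoid dendritic cells, which carry B220 and make interferon, summed to 459 to 524 CPM in the B220− libraries and 369 to 388 CPM in the B220+ libraries, with no overlap. Most of that sum was Ccr9, a gut-homing receptor that T cells also carry, which fell (440 ± 40.9 to 307 ± 6.16 CPM, adjusted p = 6.34e-04). Cox6a2 rose (6.05 ± 2.50 to 23.0 ± 0.748 CPM, adjusted p = 0.00252), and Pacsin1 and Tcf4 were not called. The defining gene Siglech had 4 B220− and 96 B220+ counts, Klk1 had 5 and 41, and Ly6d had 14 and 41, and none of the 3 passed the filter on low counts. The part of these cells was not tested either. Epithelial markers summed to 293 to 357 and 323 to 366 CPM with no member called by edgeR. Macrophage and dendritic cell markers summed to 254 to 327 CPM in the B220− and 385 to 537 CPM in the B220+ libraries. Of 5 tested, 4 had a fitted change below 0, with 1 called lower and 0 higher. Natural killer and innate lymphoid markers summed to 25.2 to 26.7 and 24.9 to 26.6 CPM, with 2 of 3 tested called lower and 1 higher. The part of these cells was not tested.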

How the data were processed

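Total RNA of 6 sorted samples was prepared with a directional library kit, per the labels' protocols. The authors deposited raw gene counts as whole numbers, 1 column per library. The submitters' processing notes name, without roles, HISAT2 2.1.0, featureCounts 1.6.3, SAMtools 1.9, Trimmomatic 0.38, FastQC 0.11.7 and the mm10 build. Settings for strand and multi-mapped reads were not given in the sources used here, so overlapping genes and close relatives are uncertain.

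Counts were tested with edgeR 4.0.16 in R 4.3.3: filterByExpr (minimum count 10, total 15), trimmed-mean scaling (factors 0.990 to 1.01), a robust quasi-likelihood fit on the group alone, Benjamini-Hochberg adjustment over 14722 genes and calls under 0.05. The pipeline was tested on simulated counts drawn separately for each library, with no pairing between libraries. That test therefore does not cover the pairing given below. Alternatives were DESeq2 1.42.0, its size factors, no filter, a replicate block and leaving out each library. Same-numbered libraries correlated in their deviations from the group mean at 0.345, 0.323 and 0.291, and others at −0.237 to −0.0596. The title numbers were therefore taken as pairs in the replicate block, from the data and not the labels. The main fit leaves this pairing out. Deviations within a group sum to 0, so the values below 0 are forced in part. Exon lengths are from GENCODE M21, with 98.73% of gene models at equal coordinates. Of 279 list entries, 277 matched by symbol and 2 by identifier. Promoters are RefSeq windows. Every member was accounted for, with library values for called members, transcription factors, sensors and the 3 most abundant per length. The members and lists were chosen with earlier results of these data known. No library was left out. Some genes of the lists are not reported here.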

Additional observations from a re-analysis of the deposited data

How the results depend on the processing

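All 15 called members kept their direction under the 10 alternatives, and 7 of them (Ifih1, Ifit1, Ifit1bl1, Oas2, Oas3, Mx1 and Isg15) kept the call in each. With the replicate block, 1266 genes were lower and 1303 higher in the whole table, against 818 and 821, and among the antiviral members 19 were lower and 1 higher. That block also called 2 inducers of interferon transcription lower and 1 higher. With no filter, 1 member (Oasl1) was higher. With DESeq2, 1 inducer of interferon transcription and 1 interferon-γ gene (Irf8, in both lists) were higher. Leaving out 1 library gave 545 to 823 genes lower (545 without B220+ replicate 2) and 425 to 966 higher (425 without B220+ replicate 2, 441 without B220− replicate 3), 9 to 15 members lower and 0 higher, 8 to 12 interferon-γ genes lower and 0 to 1 higher, 0 to 1 inducers higher, and 0 to 1 other type I targets higher. The uncalled Dhx58 (−0.17 to 0.071), Eif2ak2 (−0.032 to 0.16) and Samd9l (−0.018 to 0.099) changed sign in these fits, and the cause was not tested. Fits with fewer libraries have less power. Members under about 100 counts per group (Oas2, Oasl2, Mx2) are limited by depth.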
